A study of Mus musculus with 6 samples.

Results

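The 36 genes described here belong to the unfolded protein response and the amino acid stress response. They were chosen by symbol, and 36 of 36 were found among the 41214 genes of the count tables. All 36 passed the filter on low counts, Aldh1l2 through the control libraries. RNA was sequenced from explant cells of mouse mammary tumours that derive from NMuMG, a mouse mammary gland epithelial line, and express the receptor tyrosine kinase ErbB2. Both groups share that background: 3 libraries carried a control short hairpin RNA (shCTL, genotype WT in the labels) and 3 carried a hairpin against CdGAP (shCdGAP, genotype CdGAP KD). CdGAP, the product of Arhgap31, is an inactivator of the GTPases Cdc42 and Rac1. The series title concerns CdGAP and Zeb2 as repressors of E-cadherin transcription. The labels give 1 cell source, and do not say whether the replicates were separate cultures or whether more than 1 hairpin or clone was used, so the p-values rest on the scatter among 6 libraries, part or all of which can be technical.

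When unfolded protein builds up in the endoplasmic reticulum (ER), the sensors IRE1, ATF6 and PERK respond. IRE1 splices Xbp1 messenger RNA and ATF6 is cut in the Golgi, and the factors these steps release switch on genes for ER chaperones and for ER-associated degradation (ERAD), the disposal of misfolded protein. PERK, and GCN2 when amino acids run short, phosphorylate the initiation factor eIF2, which slows general translation and favours translation of ATF4. ATF4 with its partners, including CHOP, switches on genes for amino acid uptake and for synthesis of asparagine, serine and mitochondrial one-carbon units. Much of this pathway acts on splicing, protein cleavage and translation, which counts of fragments per gene do not show.

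The RefSeq promoter table (GRCm38.p6) held 35 promoters for 32 of the 36 genes. The 250 bases before each start were searched on both strands for 4 motifs. The ER stress response element (ERSE), bound by ATF6 and XBP1, reads CCAAT, then 9 bases of any kind, then CCACG. It stood in 7 of the 12 chaperone and folding genes with a promoter in the table, in none of the other 20 genes, and in 0.113% of all 32851 promoters. Its matches are shown with 20 bases on either side. The chaperone genes were chosen as known genes of this response, so their share is not independent of the choice. The other 5 chaperone genes with a promoter in the table held no match. Capitals mark the motif, and where it lies on the opposite strand they read as its reverse complement.

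Hspa5 (chr2:34772005-34772063, plus strand): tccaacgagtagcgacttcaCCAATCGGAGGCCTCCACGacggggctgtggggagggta
Hsp90b1, far match (chr10:86705618-86705676, minus strand): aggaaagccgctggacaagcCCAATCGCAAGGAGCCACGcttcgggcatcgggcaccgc
Hsp90b1, near match (chr10:86705513-86705571, minus strand): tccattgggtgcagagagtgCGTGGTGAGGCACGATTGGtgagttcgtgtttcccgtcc
Calr (chr8:84847055-84847113, minus strand): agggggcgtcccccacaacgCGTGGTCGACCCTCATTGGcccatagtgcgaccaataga
Canx (chr11:50325780-50325838, minus strand): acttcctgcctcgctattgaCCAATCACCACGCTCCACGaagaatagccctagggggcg
Pdia6 (chr12:17266471-17266529, plus strand): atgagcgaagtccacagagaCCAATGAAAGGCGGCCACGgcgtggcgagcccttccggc
Dnajc3 (chr14:118937807-118937865, plus strand): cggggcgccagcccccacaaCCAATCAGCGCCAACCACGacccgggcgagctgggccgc
Creld2 (chr15:88819500-88819558, plus strand): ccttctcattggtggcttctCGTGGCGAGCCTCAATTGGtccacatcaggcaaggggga

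The C/EBP-ATF response element, a site for ATF4, was searched as TGATGNAA. It was found in Chac1, Asns and Herpud1, and in 3.45% of all promoters. Herpud1 also held the related element ERSE-II (ATTGG, 1 base of any kind, then CCACG, in 0.0304% of all promoters). The XBP1 element core TGACGTGG was in none of the 32 genes and in 0.563% of all promoters. These windows are shown because Chac1 and Asns share the motif and are among the genes that varied most between libraries of 1 group. Within the bases searched, a match and such variation did not go together in every gene. Bases farther from the start and variant forms of the element were not searched, so a gene without a match was not shown to lack it. Trib3 (replicate 1 at 3.46 and 3.94 times the mean of replicates 2 and 3 in shCTL and shCdGAP) held no match. Ddit3 (2.88 and 4.21 times) held none either, and Herpud1, with a match, was at 1.48 and 1.47 times. A match is a run of letters and was not tested as a site.

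Chac1 (chr2:119351029-119351076, plus strand): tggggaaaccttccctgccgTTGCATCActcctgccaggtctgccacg
Asns (chr6:7693210-7693252, minus strand): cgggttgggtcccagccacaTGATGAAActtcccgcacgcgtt
Herpud1, C/EBP-ATF element (chr8:94386297-94386344, plus strand): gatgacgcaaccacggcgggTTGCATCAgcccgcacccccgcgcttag
Herpud1, ERSE-II (chr8:94386357-94386407, plus strand): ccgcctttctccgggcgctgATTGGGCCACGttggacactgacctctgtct

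The libraries held 19176540 to 26824249 assigned fragments, and levels are given as TMM-scaled counts per 1000000 (CPM). Arhgap31, the target of the hairpin, was at 13.2, 14.4 and 15.1 CPM in shCTL replicates 1 to 3 and at 1.70, 9.16 and 8.21 CPM in shCdGAP. It did not pass the test on all 6 libraries (adjusted p = 0.19). The library shCdGAP replicate 1 stood apart on the second principal component (21.7% of the variance). The summed level of 9 mammary epithelium markers was 5905 to 8414 CPM in shCTL and 7176 to 10980 CPM in shCdGAP. Of the 6 that were tested, Cdh1 (E-cadherin, log2 fold change 1.72) and Krt7 (1.58) rose, and the basal keratin gene Krt5, at most 1.58 CPM in any library, fell. Of 7 plasma cell markers, a secretory cell type rich in ER, 6 were under 1 CPM in every library. The other, Sdc1, which epithelium also makes, was at 234 to 351 CPM in shCTL and 268 to 339 CPM in shCdGAP. The summed level of 8 fibroblast markers was 5.35 to 6.29 CPM in shCTL and 3.41 to 7.06 CPM in shCdGAP. That of 8 leukocyte markers was 18.7 to 23.6 CPM in shCTL and lower in shCdGAP, at 6.62 to 18.1 CPM. The single leukocyte markers did not move together. Of the 3 tested, 2 had positive log2 fold changes, 1 of them called risen, and 1 had a negative value (−1.45 to 2.73). The summed level of 6 endothelial markers was 2.17 to 2.33 CPM in shCTL and 0.136 to 0.76 CPM in shCdGAP, and that of 5 adipocyte markers 4.36 to 4.85 and 0.68 to 1.51 CPM. The part of these differences in the results below was not tested. In bulk RNA, fewer cells of a type and less RNA per cell cannot be told apart.

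On all 6 libraries, 5 of the 36 stress genes were called, and a gene not called was not shown to be unchanged. Of the 36, Xbp1 and Eif2ak3 rose, Edem1, Shmt2 and Aldh1l2 fell, and 31 were not called. This is 13.9% of the 36 genes, against 21.7% of all 13483 genes tested. Calls required an adjusted p under 0.05 from edgeR's quasi-likelihood test, with Benjamini-Hochberg adjustment over all genes. Groups without overlap were seen for 3 genes that were higher and 11 that were lower in shCdGAP, where 21.7% and 22.4% of all genes had such groups, 44.1% in both directions together. The median log2 fold change (shCdGAP over shCTL) was −0.27 over the 36 genes and 0.01 over all genes tested. Without shCdGAP replicate 1, 6 of the genes rose and 12 fell, 50% of the 36 against 41.8% of all genes. With the replicate number as a block, 2 rose and 6 fell, 22.2% of the 36 against 20.4% of all genes.

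**Figure D1:**
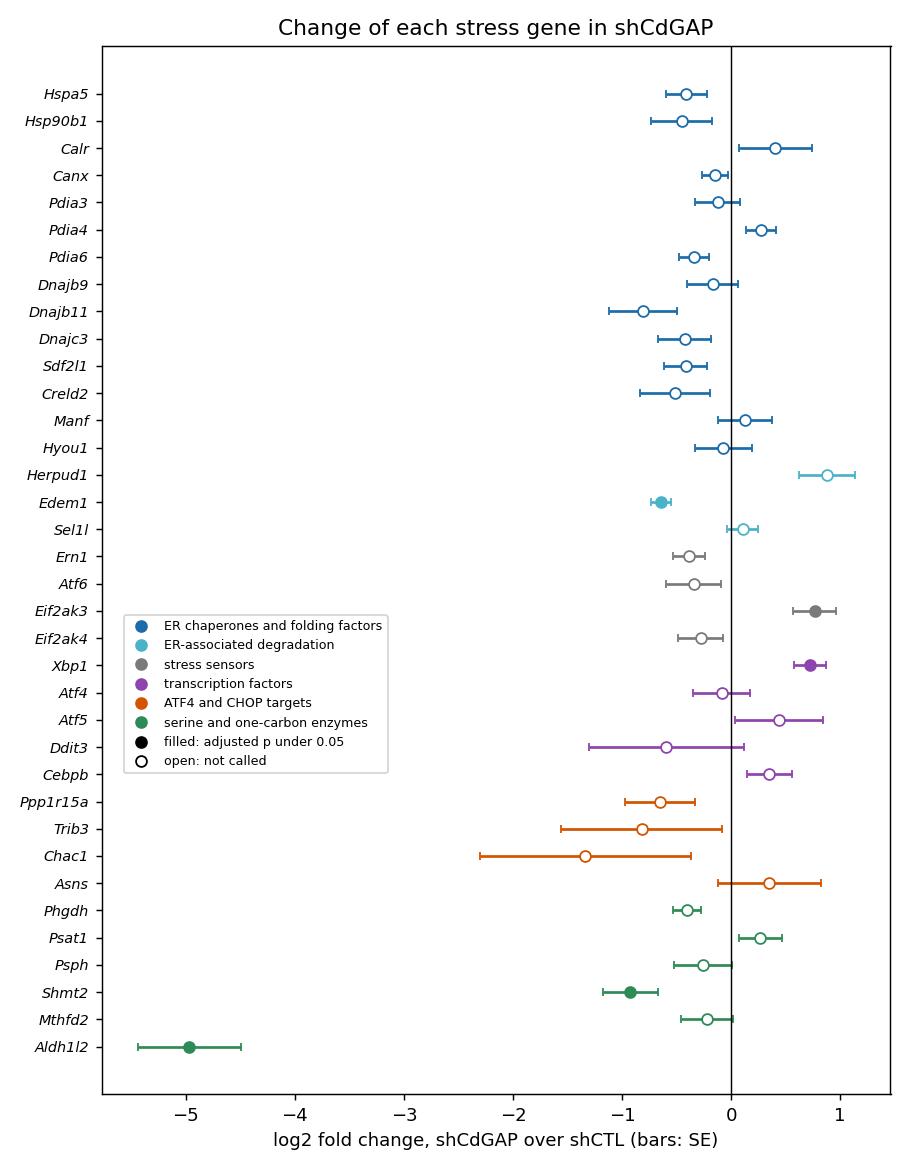
Log2 fold change of each gene (x axis, shCdGAP over shCTL, bars are SE) by gene group, from the test on 3 and 3 libraries, with filled points for adjusted p under 0.05. Of 36 genes 5 are filled, and Aldh1l2 at −4.97 lies far from the other 35, which run from −1.33 for Chac1 to 0.88 for Herpud1.

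The ER chaperones and folding factors were abundant in both groups and none of the 14 passed the test. Per kilobase of exon, Pdia3, a disulfide isomerase of glycoproteins, was the most abundant of the 36 genes in shCTL (a level of 319 CPM per kb). Hsp90b1, which encodes the chaperone GRP94, was at 314 and Hspa5, which encodes the chaperone BiP, at 257 CPM per kb. The order of Pdia3 and Hsp90b1 lies within the spread of Pdia3 over the shCTL libraries (999.8 ± 162 CPM before scaling by length, SD, n = 3). The median log2 fold change of the 14 genes was −0.25, with values from −0.80 to 0.41, and 6 of 14 were lower in every shCdGAP library than in any shCTL library (42.9%, against 22.4% of all genes). Among the 7 genes with an ERSE shown above, the values ran from −0.51 for Creld2 to 0.41 for Calr.

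Hspa5 was at 959, 886 and 865 CPM in shCTL replicates 1 to 3 and at 497, 757 and 785 CPM in shCdGAP. Its groups did not overlap, and the lowest library was shCdGAP replicate 1. At −0.41 ± 0.19 (SE), its log2 fold change missed the threshold (adjusted p = 0.17). Hsp90b1 was at 1220, 1335 and 1243 CPM in shCTL and at 543, 1072 and 1160 CPM in shCdGAP, a log2 fold change of −0.45 ± 0.28 (adjusted p = 0.30). Here too the groups did not overlap and shCdGAP replicate 1 was the lowest. Pdia3 was at 814, 1109 and 1076 CPM in shCTL and at 680, 1010 and 1064 CPM in shCdGAP, so its groups overlapped (log2 fold change −0.12 ± 0.21, adjusted p = 0.73).

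The same library was the lowest of the shCdGAP group for 13 of the 14 chaperone genes, against 39.7% of all genes. The exception was Dnajb9, an ER co-chaperone that binds IRE1, at 30.0 CPM there and 16.6 and 19.2 CPM in replicates 2 and 3. The lectin chaperone gene Calr (calreticulin) was at 501, 744 and 698 CPM in shCTL and at 468, 1026 and 1082 CPM in shCdGAP. Without shCdGAP replicate 1, the library with the least Arhgap31 (1.70 CPM), 41.8% of all genes were called. In that fit Calr rose (log2 fold change 0.71, adjusted p = 0.00793), as did the disulfide isomerase gene Pdia4 (0.41, adjusted p = 0.00347). Manf, a secreted ER stress factor, also rose (0.38, adjusted p = 0.00564). Dnajb11, a co-chaperone of BiP, fell there (−0.52, adjusted p = 0.042), as did Dnajb9 (−0.45, adjusted p = 0.0189). None of these genes passed with any other 1 library left out. Dnajb11 also fell with the replicate block (−0.85, adjusted p = 0.0215), and on all 6 libraries without it was at −0.80 ± 0.31 (adjusted p = 0.12). Manf shares part of its annotated span with Rbm15b on the same strand, so its counts are uncertain. The other chaperone genes were Canx (calnexin, −0.15), Pdia6 (−0.34), the co-chaperone Dnajc3 (−0.43), Sdf2l1 (−0.42), Creld2 (−0.51) and Hyou1 (−0.07), given as log2 fold changes with adjusted p from 0.14 to 0.88.

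**Figure D2:**
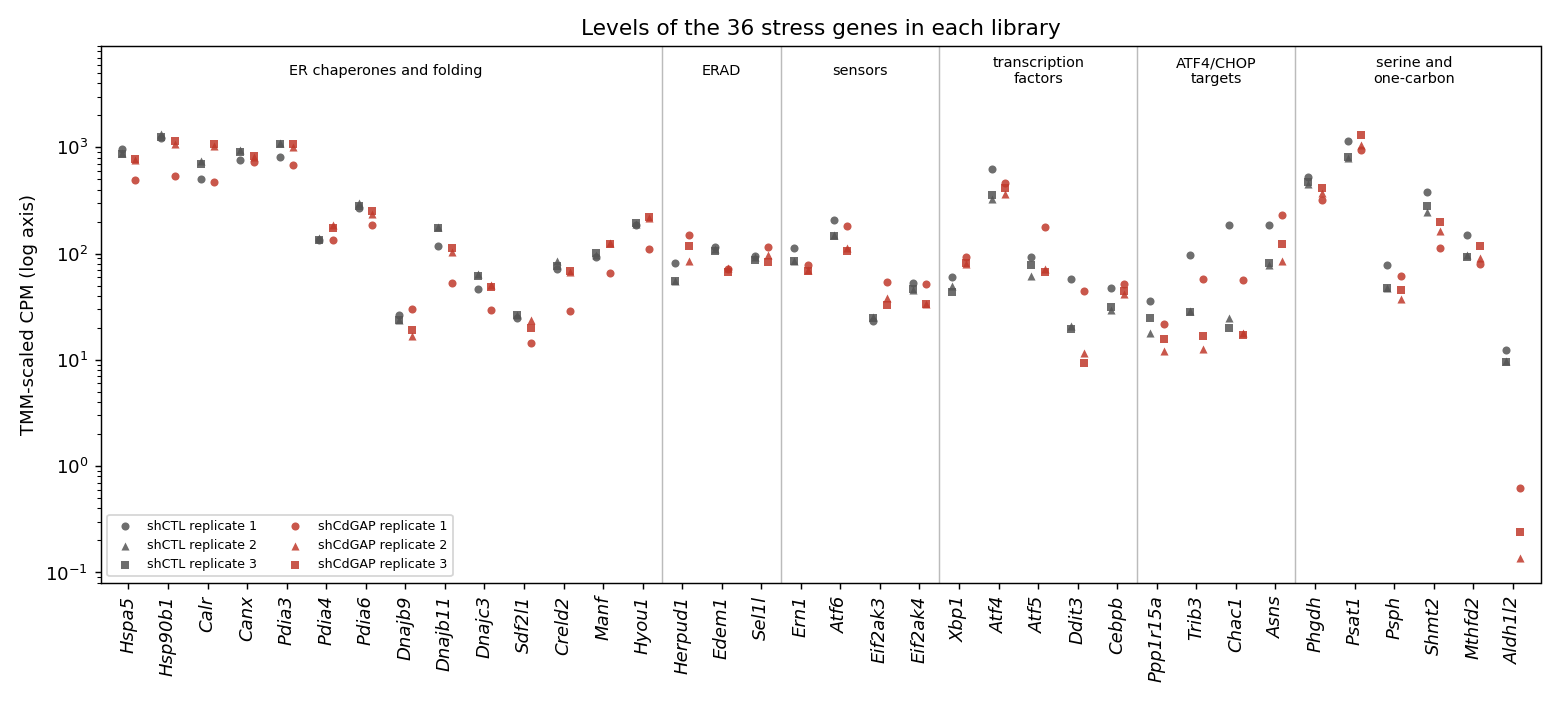
TMM-scaled CPM (y axis, log scale) of each of the 36 genes in each of the 6 libraries, grouped by role, with grey for shCTL, red for shCdGAP and the marker shape for the replicate number. Circles, the libraries numbered 1, lie at the bottom for most chaperone genes and at the top for Ddit3, Trib3, Chac1 and Asns in both groups, while Aldh1l2 parts the groups widely.

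In ERAD, Edem1 fell and the other members were not called. Edem1, a lectin-like protein that directs misfolded glycoproteins to disposal (ENSMUSG00000030104, GRCm38 chromosome 6 from 108828641 to 108859356), was at 115, 110 and 105 CPM in shCTL. It was at 71.6, 72.7 and 67.6 CPM in shCdGAP. The groups were well apart and each was tight. Its log2 fold change of −0.64 ± 0.09 (adjusted p = 0.00499) also held with any 1 library left out (adjusted p up to 0.0372) and with the replicate block (adjusted p = 0.0160). Herpud1, a membrane scaffold of ERAD, was at 81.6, 55.0 and 55.3 CPM in shCTL and at 149, 84.4 and 119 CPM in shCdGAP. All 3 shCdGAP libraries lay above the shCTL libraries, and the log2 fold change of 0.88 ± 0.25 just missed the threshold (adjusted p = 0.0536). Herpud1 rose with the replicate block (0.87, adjusted p = 0.0181), in DESeq2 (adjusted p = 0.0114), with no filter on low counts (adjusted p = 0.0392) and without shCdGAP replicate 1 (0.69, adjusted p = 0.0287) or 2 (1.07, adjusted p = 0.0395). Sel1l, the partner of the ERAD ligase HRD1, was at 95.3, 93.3 and 86.5 CPM in shCTL and at 116, 97.8 and 82.5 CPM in shCdGAP, with overlapping groups (0.11 ± 0.14, adjusted p = 0.65).

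Of the 4 stress sensors, only Eif2ak3 was called. Eif2ak3 encodes PERK (ENSMUSG00000031668, chromosome 6 from 70844515 to 70905245). It was at 23.2, 25.4 and 25.0 CPM in shCTL and at 53.6, 38.6 and 33.0 CPM in shCdGAP, a rise of 1.70-fold. Every shCdGAP library was above every shCTL library, with the highest level in shCdGAP replicate 1. The log2 fold change was 0.77 ± 0.20 (adjusted p = 0.0352). The call was lost with the replicate block (0.74, adjusted p = 0.0631) and without shCTL replicate 1, 2 or 3 (adjusted p = 0.101, 0.117 and 0.12) or shCdGAP replicate 2 (adjusted p = 0.0799).

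The other sensors had negative fold changes. Ern1, which encodes IRE1, was at 113, 85.9 and 84.9 CPM in shCTL and at 78.3, 70.4 and 68.4 CPM in shCdGAP, without overlap (log2 fold change −0.39 ± 0.14, adjusted p = 0.11). Atf6 was at 207, 151 and 147 CPM in shCTL and at 181, 112 and 105 CPM in shCdGAP, where the libraries numbered 1 were the highest of each group and the groups overlapped (−0.34 ± 0.25, adjusted p = 0.38). Eif2ak4, which encodes GCN2, the sensor of uncharged transfer RNA, had −0.28 ± 0.21 (adjusted p = 0.39). Without shCdGAP replicate 1 all of these fell, in a fit that called 41.8% of all genes. Ern1 fell by 0.43 on the log2 scale (adjusted p = 0.0337). Atf6 fell by 0.62 (adjusted p = 0.0131) and Eif2ak4 by 0.52 (adjusted p = 0.00595). The same fit kept shCTL replicate 1, the highest shCTL library for each of these genes. Without shCTL replicate 1 instead, none was called. Ern1 was then at −0.25 (adjusted p = 0.19), Atf6 at −0.19 (adjusted p = 0.67) and Eif2ak4 at −0.22 (adjusted p = 0.58).

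Among the 5 transcription factors, Xbp1 rose and the others were not called. Xbp1 (ENSMUSG00000020484, chromosome 11 from 5520659 to 5525893) was at 60.7, 49.996 and 43.5 CPM in shCTL and at 92.3, 80.3 and 82.2 CPM in shCdGAP, a rise of 1.65-fold. The groups did not overlap. The log2 fold change was 0.72 ± 0.15 (adjusted p = 0.0171) and passed with the replicate block (adjusted p = 0.0182). It missed the threshold without shCTL replicate 2 (adjusted p = 0.0837) or 3 (adjusted p = 0.0693). The counts cover Xbp1 as a whole and do not separate the spliced from the unspliced form.

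Atf4 was at 627, 329 and 356 CPM in shCTL and at 457, 365 and 417 CPM in shCdGAP. Its highest library in each group was the one numbered 1, and the groups overlapped (log2 fold change −0.08 ± 0.26, adjusted p = 0.86). Per kilobase Atf4 was at 254 CPM per kb in shCTL, next to Hspa5, and 239 in shCdGAP. Atf5, a relative of ATF4, was at 93.9, 61.6 and 78.3 CPM in shCTL and at 178, 71.9 and 66.7 CPM in shCdGAP (0.44 ± 0.40, adjusted p = 0.50). Cebpb, a dimer partner of ATF4, had 0.35 ± 0.21 (adjusted p = 0.28). Ddit3, which encodes the pro-apoptotic factor CHOP, was at 58.3, 21.0 and 19.5 CPM in shCTL and at 44.3, 11.7 and 9.40 CPM in shCdGAP. Within each group its replicate 1 was far above the others, and the log2 fold change of −0.59 ± 0.71 did not pass (adjusted p = 0.61). It fell with the replicate block (−0.76, adjusted p = 0.0444) and without shCdGAP replicate 1 (−1.63, adjusted p = 0.0269). That last fit called 41.8% of all genes and kept the high shCTL replicate 1. Without shCTL replicate 1 instead, Ddit3 was at 0.070 (adjusted p = 0.961).

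None of the 4 targets of ATF4 and CHOP was called, and in all 4 the libraries numbered 1 were the highest of both groups. Chac1, an enzyme that degrades glutathione, was at 188, 25.0 and 20.1 CPM in shCTL and at 56.9, 17.8 and 17.3 CPM in shCdGAP. Within shCTL, replicate 1 was 8.33 times the mean of replicates 2 and 3, and within shCdGAP 3.24 times. That spread is larger than the difference between the groups (log2 fold change −1.33 ± 0.97, adjusted p = 0.38). Trib3, a pseudokinase that restrains ATF4 and CHOP, was at 97.9, 28.6 and 28.1 CPM in shCTL and at 58.0, 12.7 and 16.8 CPM in shCdGAP (−0.82 ± 0.74, adjusted p = 0.49). Trib3 fell with the replicate block (−0.89, adjusted p = 0.0198) and without shCdGAP replicate 1 (−1.78, adjusted p = 0.0345). That last fit called 41.8% of all genes and kept the high shCTL replicate 1. Without shCTL replicate 1 instead, Trib3 was at 0.0076 (adjusted p = 0.996). Ppp1r15a encodes GADD34, the phosphatase subunit that reverses eIF2 phosphorylation. It had −0.66 ± 0.32 (adjusted p = 0.20) and also fell with the block (−0.64, adjusted p = 0.0294) and without shCdGAP replicate 1 (−0.89, adjusted p = 0.0349). Without shCTL replicate 1, Ppp1r15a was at −0.38 and did not pass (adjusted p = 0.45).

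Asns, asparagine synthetase, had a positive fold change unlike the other 3 targets. It was at 185, 77.9 and 81.3 CPM in shCTL and at 230, 85.7 and 123 CPM in shCdGAP. Each shCdGAP library was above the shCTL library of the same number, and the groups overlapped (log2 fold change 0.35 ± 0.47, adjusted p = 0.65). With the replicate block the value was 0.35 and did not pass (adjusted p = 0.125). Without both libraries numbered 1, a fit added after the data were seen, Asns rose by 0.41 (adjusted p = 0.0217) while Chac1 (−0.35, adjusted p = 0.032), Trib3 (−0.93, adjusted p = 9.32e-05), Ddit3 (−0.94, adjusted p = 8.73e-05) and Ppp1r15a (−0.60, adjusted p = 0.0107) fell. That fit of 2 against 2 libraries called 10 of the 36 genes higher and 16 lower, where 52.2% of all genes were called.

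The 6 enzymes of serine synthesis and mitochondrial one-carbon metabolism held the largest change of all 36 genes. Aldh1l2, a mitochondrial dehydrogenase that oxidises 10-formyltetrahydrofolate (ENSMUSG00000020256, chromosome 10 from 83487450 to 83534140), was at 12.3, 9.82 and 9.48 CPM in shCTL. In shCdGAP it was at 0.63, 0.14 and 0.24 CPM, from 14, 3 and 6 counts. It passed the filter on low counts through shCTL, at 239, 270 and 252 counts. With so few counts in shCdGAP, the size of the fall is uncertain. The groups were far apart, with a 31.6-fold fall of the mean. Its log2 fold change of −4.97 ± 0.47 (adjusted p = 0.00113) held with each library left out in turn (adjusted p up to 0.00854) and was −5.05 with the replicate block (adjusted p = 0.00513). Of 15 tested genes within 1 Mb of Aldh1l2, 7 fell and 0 rose, with a median log2 fold change of −0.53, where 11.4% of all genes fell and 10.4% rose. That difference in share was not tested.

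Shmt2, the mitochondrial serine hydroxymethyltransferase (ENSMUSG00000025403, chromosome 10 from 127517123 to 127522444), was at 379, 248 and 278 CPM in shCTL and at 114, 164 and 199 CPM in shCdGAP. The groups did not overlap and the fall was 1.90-fold. The log2 fold change was −0.92 ± 0.25 (adjusted p = 0.0427). The call was lost with the replicate block (adjusted p = 0.0888), with at least 10 CPM required (adjusted p = 0.0539), without shCTL replicate 1, 2 or 3 (adjusted p = 0.147, 0.0746 and 0.103) and without shCdGAP replicate 2 (adjusted p = 0.115). Of 57 tested genes within 1 Mb of Shmt2, 8 fell and 2 rose, with a median of −0.29, where 11.4% and 10.4% of all genes did so. Ddit3, on chromosome 10 from 127290774 to 127296288, is among these neighbours.

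Phgdh, which starts serine synthesis, was at 532, 455 and 476 CPM in shCTL and at 320, 373 and 410 CPM in shCdGAP. The groups were apart, and the log2 fold change of −0.41 ± 0.13 did not pass (adjusted p = 0.0678), though it did in DESeq2 (adjusted p = 0.048), with raw library totals (adjusted p = 0.0459) and without shCdGAP replicate 1 (−0.30, adjusted p = 0.0407). Psat1, the next enzyme, was at 1148, 792 and 805 CPM in shCTL and at 940, 1063 and 1300 CPM in shCdGAP, with overlap (0.27 ± 0.20, adjusted p = 0.39). Psph, the last enzyme, had −0.26 ± 0.27 (adjusted p = 0.55), and Mthfd2, a mitochondrial folate enzyme, −0.22 ± 0.24 (adjusted p = 0.56). So the 3 enzymes of the serine branch had values of −0.41, 0.27 and −0.26 in pathway order.

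Set side by side, the chaperones and the ATF4 and CHOP targets differed in their medians and in how libraries of the same group were ordered. Which of these differences was the larger was not tested. The group medians of the log2 fold change were −0.25 for chaperones, −0.74 for ATF4 and CHOP targets, −0.33 for serine and one-carbon enzymes, 0.35 for transcription factors, −0.31 for sensors and 0.11 for ERAD. The direction of several rested on 1 library. Without shCTL replicate 1 the median of ATF4 and CHOP targets was 0.21, and without shCdGAP replicate 1 that of transcription factors was −0.15 and that of ERAD −0.01. In shCdGAP replicates 1 to 3 the median log2 ratio to the shCTL mean (0.5 CPM added) was −0.71, −0.15 and −0.15 for chaperones. For ATF4 and CHOP targets it was −0.04, −1.53 and −1.15 in shCdGAP and 0.80, −0.70 and −0.68 in shCTL. Thus shCdGAP replicate 1 was the lowest library for the chaperones, and the highest of its group for the ATF4 and CHOP targets. For serine and one-carbon enzymes the medians were −0.55, −0.50 and −0.29 in shCdGAP and 0.33, −0.21 and −0.17 in shCTL.

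**Figure D3:**
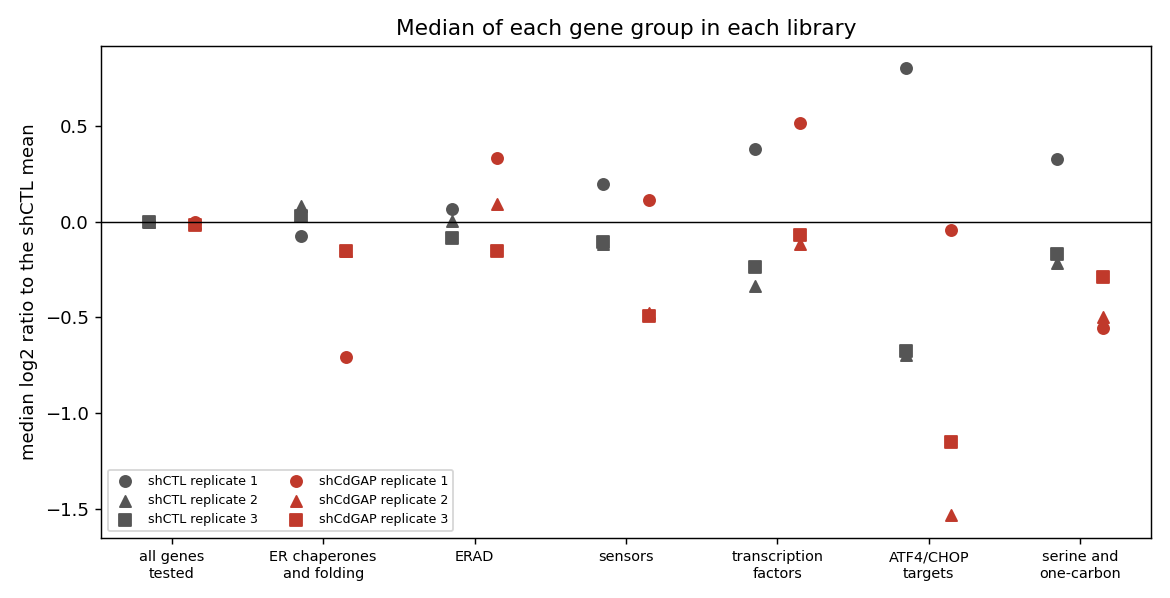
Median log2 ratio to the shCTL mean (y axis) of each gene group in each library, beside the same for all genes tested, with colour for the hairpin and marker shape for the replicate number. The ATF4 and CHOP targets span −1.53 to 0.80 and are highest in the libraries numbered 1 of both groups, and the chaperones are lowest at −0.71 in shCdGAP replicate 1.

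For most transcription factors, ATF4 and CHOP targets and chaperones, replicate 1 lay on the same side of replicates 2 and 3 in both arms. For all 5 transcription factors and all 4 ATF4 and CHOP targets, replicate 1 was the highest library in shCTL and in shCdGAP, a pattern seen in 27.3% of all genes. For 12 of the 14 chaperone genes replicate 1 was the lowest in both, a pattern seen in 23.5% of all genes. The exceptions were Hspa5, lowest in replicate 1 only in shCdGAP, and Dnajb9, highest there in both. Median ratios of replicate 1 to the mean of replicates 2 and 3 were 2.89 in shCTL and 2.72 in shCdGAP for ATF4 and CHOP targets. They were 0.925 and 0.616 for chaperones, and 1.00 and 1.05 for all genes. The serine and one-carbon enzymes were highest in replicate 1 for 6 of 6 genes in shCTL and for 2 of 6 in shCdGAP, so in that arm they did not follow the ATF4 targets. The deposited labels do not say what the libraries numbered 1 share.

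**Figure D4:**
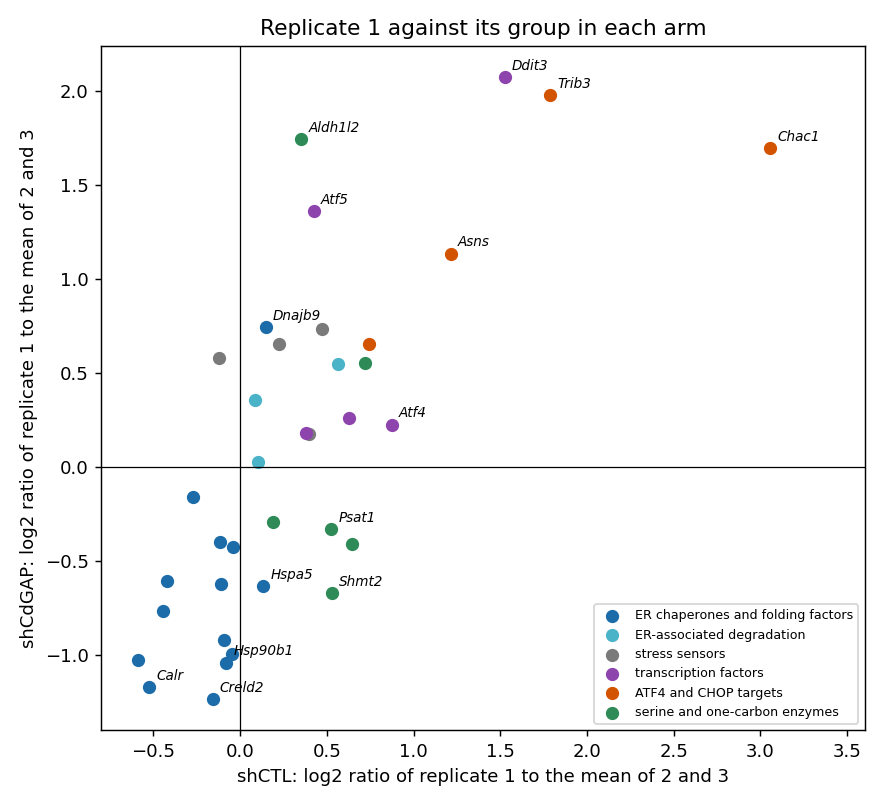
Log2 ratio of replicate 1 to the mean of replicates 2 and 3 for each of the 36 genes, in shCTL (x axis) and in shCdGAP (y axis), coloured by gene group. The ATF4 and CHOP targets lie in the upper right, led by Chac1 with ratios of 8.33 and 3.24, and most chaperone genes lie in the lower left.

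Further genes of the pathway, from lists written by role, were called at shares of 7.41% to 19.4% by list, where 21.7% of all genes were called. The lists were written with earlier results of these data known. With so few genes in a list these shares are given as a description. Of 36 other ER folding and translocation genes, 2 rose and 3 fell (13.9%, median log2 fold change 0.05). Hspa13, an ER-associated HSP70 relative, fell from 103 ± 10.4 to 48.4 ± 4.02 CPM (n = 3 each), and the signal peptidase subunit gene Sec11c from 25.5 ± 2.77 to 15.7 ± 2.72 CPM. Kdelr3, a receptor that returns chaperones to the ER, rose from 5.07 ± 1.28 to 9.03 ± 1.08 CPM, and Fkbp2, an ER prolyl isomerase, from 32.1 ± 2.41 to 49.2 ± 9.29 CPM. Of 23 other ERAD genes, 1 rose and 2 fell (13%). Edem2, a mannosidase-like relative of Edem1, fell from 65.1 ± 3.40 to 31.0 ± 5.19 CPM, by 1.07 on the log2 scale (adjusted p = 0.00411), and the third gene of that family, Edem3, had −0.28 (adjusted p = 0.12). The ligase gene Rnf5 rose from 29.2 ± 3.39 to 55.3 ± 4.99 CPM, and Ufd1, a cofactor of the p97 segregase, fell from 80.5 ± 9.38 to 54.9 ± 5.56 CPM.

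Of 13 tested further regulators of the unfolded protein response, 1 rose and 1 fell (15.4%). Mbtps1, the Golgi protease that cuts ATF6, rose from 104 ± 3.85 to 156 ± 16.9 CPM. Rtcb, the ligase that joins the spliced Xbp1 exons, fell from 289 ± 13.7 to 182 ± 21.0 CPM, by 0.67 on the log2 scale (adjusted p = 0.00959), whereas Xbp1 rose. Of 16 genes around eIF2, 1 rose and 2 fell (18.8%). Eif2b2, a subunit of the exchange factor eIF2B, fell from 143 ± 3.00 to 78.2 ± 2.78 CPM (adjusted p = 0.00136), and Impact, an inhibitor of GCN2, from 37.2 ± 2.83 to 18.9 ± 6.06 CPM. The phosphatase gene Ppp1ca rose from 454 ± 21.2 to 666 ± 84.98 CPM.

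Of 36 other tested ATF4 targets and stress genes, 2 rose and 5 fell (19.4%, median −0.14). Cbs, an enzyme of cysteine synthesis, rose from 2.58 ± 0.347 to 23.3 ± 5.86 CPM, by 3.17 on the log2 scale (adjusted p = 0.000526), and the amino acid transporter subunit gene Slc3a2 from 261 ± 12.8 to 351 ± 26.7 CPM. Sesn2, a stress sensor upstream of mTORC1, fell from 98.6 ± 20.1 to 37.8 ± 7.93 CPM (adjusted p = 0.00575), and the death receptor gene Tnfrsf10b from 70.9 ± 9.84 to 35.6 ± 6.82 CPM. Replicate 1 was the highest library of both groups for 24 of these 36 genes, against 27.3% of all genes. Of 20 cytosolic aminoacyl-tRNA synthetases, 0 rose and 2 fell (10%), Wars from 139 ± 10.3 to 81.7 ± 8.10 CPM and Rars from 328 ± 38.02 to 191 ± 23.9 CPM. Of 27 other tested serine, glycine and one-carbon genes, 2 rose and 0 fell (7.41%). Sfxn1, the mitochondrial serine carrier, rose from 130 ± 6.60 to 200.5 ± 13.7 CPM, by 0.62 on the log2 scale (adjusted p = 0.00734), and Sdsl, a serine dehydratase relative, from 4.56 ± 0.633 to 10.7 ± 4.69 CPM.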

How the data were processed

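Counts of fragments per gene were deposited by the authors, 1 table per library. Per the file headers they came from featureCounts 1.4.6 on TopHat alignments with Ensembl release 77, counting pairs with both ends aligned and strand setting 2 (reverse-stranded). The submitters' processing notes name CASAVA 1.8, Trimmomatic 0.30, TopHat2 2.0.14, Cuffdiff 2.2.1, DESeq and GRCm38. Gene length in bases comes from the deposited tables. Symbols come from GENCODE M21 (GRCm38).

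Low counts were removed with filterByExpr, set to a minimum count of 10 and a total of 15. It keeps a gene that reaches the minimum, scaled to library size, in at least 3 libraries, the size of 1 group. The rest were tested with edgeR 4.0.16 (TMM, quasi-likelihood F test) in R 4.3.3, with Benjamini-Hochberg adjustment over 13483 genes. SE values were derived as |log2 fold change| / √F. DESeq2 1.42.0, other scalings and filters, the replicate block and leaving out each library were alternatives. The edgeR step was tested on simulated data with independent libraries. Those data held no shift shared by same-numbered libraries and no outlying library, so the effect of these was not tested. A single fragment equals 0.0373 to 0.0521 CPM by library, and the limit at 0 fragments (3 counts) is 0.112 to 0.156 CPM. That covers counting error only, which is small beside the spread between libraries for most of these genes.

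The replicate numbers come from the sample titles. Deviations from the group means of same-numbered libraries correlated at 0.36, 0.29 and 0.25, all above 0.1, so the numbers were taken to pair the libraries, and blocked values are given where they change a call. Crossed numbers 2 and 3 correlated at 0.25 and 0.19, so these values do not tell which of numbers 2 and 3 belong together. Deviations within a group cancel out, so the correlations are also not independent of each other. No common day or batch is given in the labels, and the blocked values rest on this pairing rule.

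The 36 genes, their roles and the further lists were chosen with earlier results of these data known. By rule, every called gene and the 2 most abundant of each role are given by library, and from each further list the 2 risen and 2 fallen genes with the smallest adjusted p. Per-library values of Hspa5, Calr, Dnajb9, Herpud1, Ddit3 and Trib3, the further genes Edem3 and Hspa1a, and the fit without both libraries numbered 1 were chosen after values were seen.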

Additional observations from a re-analysis of the deposited data

How the results depend on the processing

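Calls of Edem1 and Aldh1l2 held in every fit that tested them, the 10 CPM filter having removed Aldh1l2 under its own rule. Those of Xbp1, Eif2ak3 and Shmt2 depended on the libraries used. With 1 library left out, 0 to 6 of the 36 genes rose and 2 to 12 fell, while 538 to 2753 of all genes rose and 856 to 3032 fell. Medians ran from −1.34 to 0.21 for ATF4 and CHOP targets, −0.44 to −0.17 for serine and one-carbon enzymes and −0.15 to 0.57 for transcription factors. With at least 10 CPM required, 870 genes rose, 825 fell and 1 of the stress genes fell. With the replicate block 6 of them fell, and only calls given in the report changed. Without both libraries numbered 1, a fit added after the data were seen, 3475 genes rose and 3640 fell, and 10 and 16 of the stress genes. In that fit Hyou1 was at 0.19, Atf4 at 0.20, Mthfd2 at 0.17 and Atf5 at −0.0041, with signs opposite to those on all 6 libraries. Genes whose sign turned when a library was left out had log2 fold changes of −0.25 to 0.25 (Atf4), −0.16 to 0.68 (Atf5), −1.63 to 0.070 (Ddit3), −1.78 to 0.0076 (Trib3), −2.12 to 0.42 (Chac1), −0.12 to 0.85 (Asns), −0.45 to 0.0083 (Psph) and −0.39 to 0.023 (Mthfd2). For Pdia3 they were −0.26 to 0.065, for Dnajb9 −0.45 to 0.0021, for Manf −0.021 to 0.38, for Hyou1 −0.23 to 0.20 and for Sel1l −0.013 to 0.22. None of these 13 passed on all 6 libraries, and the cause was not tested. RLE scaling changed no call among the 36 genes. Depth does not limit the abundant genes, and Aldh1l2 in shCdGAP rests on 3 to 14 counts per library.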

Other observations

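Chaperone lists outside the ER are given as values. Of 17 tested cytosolic heat shock genes, 3 rose and 1 fell (23.5%, near the 21.7% of all genes). Hspb8, a small heat shock protein of chaperone-assisted autophagy, fell from 78.0 ± 5.45 to 29.1 ± 2.65 CPM (n = 3 each, log2 fold change −1.42 ± 0.12, adjusted p = 0.000764 in the edgeR test). Hspb1, another small heat shock protein, rose from 26.1 ± 2.26 to 57.3 ± 25.7 CPM (adjusted p = 0.0428), and Hsp90ab1, the constitutive cytosolic HSP90, from 2785 ± 34.9 to 3973 ± 547 CPM (adjusted p = 0.0386). Hspa1a, which heat induces, had at most 1 count in any library. Of 14 mitochondrial chaperones and proteases, 1 rose and 4 fell (35.7%). Spg7, a protease subunit of the inner membrane, rose from 57.5 ± 6.10 to 105 ± 13.2 CPM (adjusted p = 0.00698). Grpel1, the nucleotide exchange factor of mitochondrial HSP70, fell from 154 ± 16.7 to 93.6 ± 17.6 CPM (adjusted p = 0.0267), and the protease gene Htra2 from 91.0 ± 8.47 to 63.0 ± 8.34 CPM (adjusted p = 0.0372).

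Of all genes tested, 10.4% rose and 11.4% fell. Within 1 Mb of Xbp1, 1 of 35 tested genes rose and 6 fell, and within 1 Mb of Edem1, 0 of 7 rose and 1 fell. Within 1 Mb of Eif2ak3, 1 of 11 rose and 0 fell.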
